A study of Mus musculus with 10 samples.

Results

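The genes of major histocompatibility complex (MHC) class II presentation were followed in the retinas of 10 mice after intravitreal delivery of a reporter by an adeno-associated virus (AAV). The 7 genes were taken by symbol: the chains H2-Aa, H2-Ab1 and H2-Eb1, the editing chains H2-DMa and H2-DMb1, the invariant chain Cd74 and the transactivator Ciita. All 7 were found among the 57010 gene rows of the count table. They were chosen with earlier results of these data known, so their counts are descriptions. All mice were 6 to 8 weeks old and were injected into the vitreous, the gel in front of the retina, with a vector carrying green fluorescent protein (GFP). In the first group 5 mice received AAV2-GFP, the capsid in common use for the inner retina, and in the second 5 mice received AAV206-GFP, the capsid under study, which by its title the study tests as a vector for the retinal pigment epithelium. Retinas were taken 14 days later for bulk RNA sequencing. Uninjected retinas were not analysed here, and strain, sex and the promoter driving GFP are not given in the sources used here. Every difference below is therefore between vectors and not from an untreated baseline.

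MHC class II molecules are pairs of an alpha and a beta chain that carry peptides from the endosome to the cell surface, where CD4 T cells read them. The invariant chain occupies the peptide groove until cathepsins degrade it, and the DM pair then exchanges its last fragment for peptide. Transcription of all these genes depends on CIITA, a co-activator that is constitutive in B cells and dendritic cells and is induced by interferon gamma in many other cells. The healthy retina holds few class II cells, mostly a minority of its microglia and macrophages near vessels and the optic nerve.

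CIITA does not bind DNA itself but docks on factors held at the X and Y boxes of class II promoters. Promoter sequence from RefSeq (GRCm38.p6, the same assembly as the mm10 build named by the submitters) was at hand for H2-Aa, H2-Eb1, H2-DMa and H2-DMb1. No promoter of H2-Ab1, Cd74 or Ciita is shown. The 140 bases before the start of the first 2 of these genes are printed 5′ to 3′ on the gene's strand, because both hold the extended Y box and both were high in the same library. Capitals mark, on that strand, the Y box (ATTGG, or CTGATTGG in its extended form) and either a form of the X box (GNAAC, any pair of bases, then ATG) or the palindrome TGACGTCA that follows it. The H2-Aa window lies at chr17:34287824-34287963 on the minus strand and the H2-Eb1 window at chr17:34305727-34305866 on the plus strand.
H2-Aa: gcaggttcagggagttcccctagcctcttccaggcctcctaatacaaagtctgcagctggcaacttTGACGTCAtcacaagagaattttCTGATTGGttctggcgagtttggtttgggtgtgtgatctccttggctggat
H2-Eb1: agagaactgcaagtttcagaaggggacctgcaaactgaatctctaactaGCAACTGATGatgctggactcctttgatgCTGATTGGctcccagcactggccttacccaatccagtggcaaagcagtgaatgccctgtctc

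The extended Y box stood 51 to 44 bases before the start of H2-Aa and 62 to 55 bases before that of H2-Eb1. In H2-DMb1 the Y-box core ATTGG was found 61 to 57 bases before the start and the X-box form, there GTAACTGATG, 94 to 85 bases before it. H2-Eb1 carried the X-box form as GCAACTGATG at 91 to 82 bases, and H2-Aa the palindrome at 74 to 67 bases. Searched on both strands of the 250 bases before each of 32851 starts, CTGATTGG was present in 3.83% of promoters, ATTGG in 33.8%, the X-box form in 2.10% and TGACGTCA in 1.55%. The extended Y box contains the Y-box core, and the last 2 motifs were chosen after these sequences were seen. The X-box form chosen with the other tests, AGNNACAGA, occurs in 7.04% of promoters and matched none of these 4 genes. Of the 2 starts listed for H2-DMa, the first held none of these motifs and the second held ATTGG alone, 198 to 194 bases before it.

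Library totals ranged from 10989843 to 12752604 estimated counts, and 3 counts, taken as the floor of detection, correspond to 0.235 to 0.273 CPM (counts per 1000000 of the library) before scaling. Rod, cone, bipolar, amacrine, ganglion and Müller cell markers were abundant in every library, with a summed level of 44067 to 52795 CPM over 11 retinal genes, as the tissue label states. One library stood apart: on the first principal component of the 500 most variable genes, which held 45.2% of the variance, AAV2-GFP replicate 1 lay at 30.3, AAV2-GFP replicate 4 at 13.1 and the other 8 between -9.45 and 3.49. The tests below that carry a result are therefore also given without AAV2-GFP replicate 1.

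The class II genes were high in a single mouse. In AAV2-GFP replicate 1 the 7 genes summed to 529 CPM, against 5.74 to 13.01 CPM in the other 4 AAV2-GFP mice and 5.76 to 10.3 CPM in the 5 AAV206-GFP mice. All 7 were highest in that library, as were 14.3% of the 28506 genes with any value above 0. At least 20 counts and 5 times the level of every other library were found for 6 of the 7, all but H2-DMa, and for 0.786% (224) of those genes. Both limits were set after the values were seen. Of the 15539 genes tested below, 11.3% were highest in that library and 0.933% were there at least 2-fold above every other library, and the 3 tested class II genes were both.

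H2-Aa (ENSMUSG00000036594; chr17:34282744-34287823, minus strand), the alpha chain of the H2-A molecule, was at 89.2, 0, 0.773, 1.21 and 0.0854 CPM in AAV2-GFP replicates 1 to 5. In AAV206-GFP replicates 1 to 5 it was at 0.757, 0.547, 0.259, 0.0897 and 0.763 CPM. Replicate 1 of AAV2-GFP was 73.8-fold above the next library, and the other 4 mice of its group spanned the whole AAV206-GFP range.

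H2-Ab1 (ENSMUSG00000073421; chr17:34257689-34269419, plus strand), the beta chain that pairs with H2-Aa, was at 93.0, 0.629, 1.55, 1.37 and 0.513 CPM with AAV2-GFP and at 1.43, 2.01, 1.81, 1.61 and 1.53 CPM with AAV206-GFP. The first of these was 46.4-fold above the next library, which here was AAV206-GFP replicate 2. The 5 AAV206-GFP mice lay closer together than the remaining AAV2-GFP mice, of which replicates 2, 4 and 5 were below all of them.

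H2-Eb1 (ENSMUSG00000060586; chr17:34305867-34316674, plus strand), the beta chain of the H2-E molecule, was at 88.5, 0.0898, 1.47, 1.21 and 0.256 CPM with AAV2-GFP and at 0.841, 0.456, 0.172, 0.0897 and 1.27 CPM with AAV206-GFP. It was 60.2-fold higher in AAV2-GFP replicate 1 than in the next library. The locus of its alpha partner is annotated as the polymorphic pseudogene H2-Ea-ps, which was listed at 0 in all 10 libraries.

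Cd74 (ENSMUSG00000024610; chr18:60803848-60812652, plus strand), the invariant chain, had the highest level of the 7. It was at 224, 0.988, 2.09, 3.55 and 0.427 CPM with AAV2-GFP and at 1.68, 1.19, 0.604, 0.359 and 1.27 CPM with AAV206-GFP. The first value was 63.1-fold above the next library, AAV2-GFP replicate 4. Replicates 3 and 4 of AAV2-GFP were above every AAV206-GFP mouse, and replicates 2 and 5 within their range.

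The DM pair differed less. H2-DMa (ENSMUSG00000037649; chr17:34119541-34139101, plus strand) was at 13.5, 3.87, 4.19, 4.70 and 3.69 CPM with AAV2-GFP and at 3.75, 5.05, 3.91, 2.89 and 3.74 CPM with AAV206-GFP, so that AAV2-GFP replicate 1 was 2.67-fold above the next library. Unlike the chains, it was well above the floor in every retina. Its span overlaps Brd2 on the opposite strand and its counts carried decimals in 10 libraries, as happens where reads are shared with another gene, and use of strand in counting is not given in the sources used here. H2-DMb1 (ENSMUSG00000079547; chr17:34153072-34160230, plus strand) was at 6.95, 0, 0.541, 0.403 and 0.0854 CPM with AAV2-GFP and at 0.337, 0.365, 0, 0 and 0.254 CPM with AAV206-GFP. It was 12.8-fold higher in AAV2-GFP replicate 1 than in the next library, and the other 9 values lay near or under the floor.

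Ciita (ENSMUSG00000022504; chr16:10480059-10528418, plus strand), the transactivator, was at 13.4, 1.44, 0.541, 0.565 and 0.684 CPM with AAV2-GFP and at 0.673, 0.730, 1.03, 0.718 and 1.19 CPM with AAV206-GFP. AAV2-GFP replicate 1 was 9.31-fold above the next library. The mouse with the second highest Ciita, AAV2-GFP replicate 2, was at 0 for H2-Aa and H2-DMb1. Ciita overlaps Dexi on the opposite strand, although none of its counts carried decimals.

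**Figure D1:**
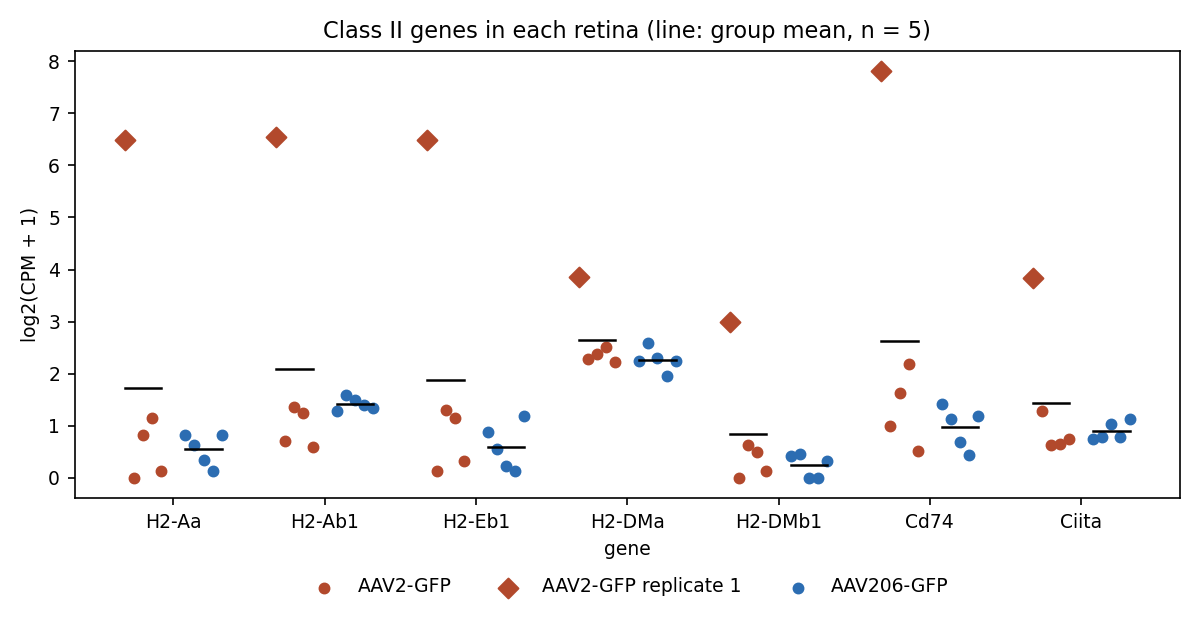
Level of each class II gene as log2(CPM + 1), with 1 point per mouse and a line at the group mean (n = 5). AAV2-GFP replicate 1 (diamonds) is above all other mice for all 7 genes, and the remaining points of both groups overlap.

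Per kilobase of annotated exon, AAV2-GFP replicate 1 held 133 CPM of Cd74, 45.5 of H2-Eb1, 36.2 of H2-Ab1 and 23.5 of H2-Aa. The DM genes followed at 4.14 (H2-DMb1) and 3.91 (H2-DMa) and Ciita at 1.40 CPM per kilobase. These levels use the union of all annotated exons, which counts retained introns, and they describe 1 library. The order began differently in most other libraries, of both groups. H2-DMa had the highest per-kilobase level in all 5 AAV206-GFP mice, from 0.839 to 1.46 CPM per kilobase. The same held in AAV2-GFP replicates 2 and 5, at 1.12 and 1.07 CPM per kilobase. In AAV2-GFP replicates 3 and 4 Cd74 was highest, at 1.24 and 2.11 CPM per kilobase.

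Compared between vectors, 3 of the 7 genes had enough counts for the test (edgeR quasi-likelihood, p-values adjusted by Benjamini-Hochberg over 15539 genes), and 1 of them, Cd74, passed at 0.05 as lower with AAV206-GFP. Over all tested genes 11.2% passed, 5.3% as lower and 5.95% as higher. Cd74 was at 46.2 ± 99.4 CPM in the AAV2-GFP mice and fell to 1.02 ± 0.534 CPM in the AAV206-GFP mice (SD, n = 5), log2 fold change -5.47 ± 1.52 (SE, adjusted p = 0.0307 by edgeR). H2-Ab1, at 19.4 ± 41.2 and 1.68 ± 0.231 CPM (SD, n = 5), did not pass at -3.52 ± 1.19 (log2 fold change ± SE, adjusted p = 0.0668 by edgeR). H2-DMa, at 5.99 ± 4.204 and 3.87 ± 0.771 CPM (SD, n = 5), did not pass either, at -0.62 ± 0.33 (log2 fold change ± SE, adjusted p = 0.228 by edgeR). The median log2 fold change of these 3 was -3.52, against -0.0095 over all tested genes. In none of the 7 genes were the groups free of overlap, which 9.78% of tested genes were.

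H2-Aa, H2-Eb1, H2-DMb1 and Ciita had too few counts outside AAV2-GFP replicate 1 to pass the filter. With the filter lifted, H2-Aa and H2-Eb1 passed at -5.18 and -4.96 on the log2 scale (adjusted p = 0.00620 and 0.00569 by edgeR), and Cd74 and H2-Ab1 passed too, so that 4 of 7 were called lower where 3.42% of all genes were. H2-DMb1 and Ciita did not pass at -2.98 and -1.91 (adjusted p = 0.0607 and 0.0763 by edgeR).

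Without AAV2-GFP replicate 1 none of the 7 genes passed, with or without the filter, while 12.2% of all tested genes did. At an unadjusted p under 0.05 there were also none, and limma-voom on all 10 libraries called none of the 3 tested genes. In the edgeR fit without the filter, the log2 fold change of Cd74 was then -0.79 ± 0.43 (SE, adjusted p = 0.307 by edgeR). Those of H2-Aa, H2-Eb1, H2-DMb1 and H2-DMa lay between -0.43 and -0.09. H2-Ab1 turned to 0.70 ± 0.40 (SE, adjusted p = 0.325 by edgeR) and Ciita to 0.11 ± 0.51 (SE, adjusted p = 0.931 by edgeR). The call of Cd74 was also lost in each of the 5 fits that left out an AAV206-GFP mouse, at adjusted p-values of 0.0589 to 0.0773 with edgeR and log2 fold changes of -5.72 to -5.26.

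**Figure D2:**
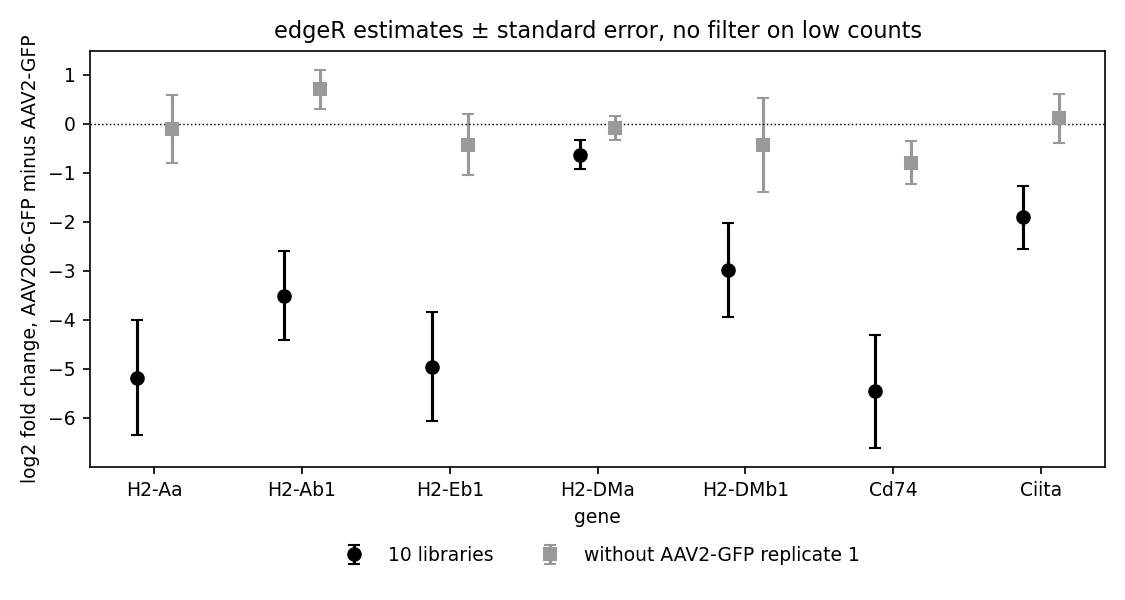
Log2 fold change of each class II gene, AAV206-GFP minus AAV2-GFP, from edgeR without a filter on low counts, with bars of 1 standard error. Black points use all 10 libraries and grey squares leave out AAV2-GFP replicate 1, after which all 7 estimates lie between -0.79 and 0.70.

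The remaining 9 mice shared a low level. As the mean of log2(CPM + 1) over H2-Ab1, H2-DMa and Cd74, the other 4 AAV2-GFP mice were at 1.55 ± 0.40 (SD, n = 4) and the AAV206-GFP mice at 1.55 ± 0.19 (SD, n = 5), against 6.07 in AAV2-GFP replicate 1. Among these 9, AAV2-GFP replicates 3 and 4 had the highest H2-Eb1 or Cd74, and AAV2-GFP replicates 2 and 5 and AAV206-GFP replicate 4 the lowest values of several chains. In these libraries H2-Aa, H2-Ab1 and H2-Eb1 had at most 22 counts each, and no member differed between the vectors at the threshold in the test of these 9 mice given above.

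The genes upstream of Ciita were not restricted to the same mouse. Of 9 genes listed for the interferon gamma axis, 7 were tested, 2 fell with AAV206-GFP and 1 rose, and their median log2 fold change was -0.19. The shares over all tested genes were 5.3% lower, 5.95% higher and 9.78% with groups that did not overlap. Irf1, an interferon-induced factor that acts on a Ciita promoter, was at 32.0, 4.13, 4.72, 20.3 and 4.35 CPM with AAV2-GFP and at 3.37 to 4.40 CPM with AAV206-GFP, log2 fold change -1.81 ± 0.50 (SE, adjusted p = 0.0303 by edgeR). It was therefore high in AAV2-GFP replicates 1 and 4. Irf1 lost its call without replicate 1 (edgeR adjusted p = 0.0620), without replicate 4 (edgeR adjusted p = 0.0798) and without each AAV206-GFP mouse, 7 of 10 such fits in all. Jak1, a kinase of the interferon receptors, rose from 131 CPM to 162 CPM without overlap of the groups, log2 fold change 0.31 ± 0.08 (SE, adjusted p = 0.0182 by edgeR). It passed without AAV2-GFP replicate 1 (0.32 ± 0.08 SE, adjusted p = 0.0206 by edgeR) and lost that call without AAV206-GFP replicate 3 or 4 (edgeR adjusted p = 0.0531 and 0.0507). The receptor genes Ifngr1 and Ifngr2 had log2 fold changes of -0.24 and -0.19 and did not pass. Ifng itself had 4 counts in AAV2-GFP replicate 1 and 0 in all other libraries.

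AAV2-GFP replicate 4 had high Irf1 and Cd274, while its Ciita and H2-Ab1 were low and close to the AAV206-GFP mice in counts. Relative to the median of the AAV206-GFP mice, its Irf1 was 5.62-fold and its Cd274 7.64-fold higher. Cd274, which encodes the checkpoint ligand PD-L1, is named after its values were seen. In the same mouse Ifi30, which interferon also induces, was at 0.981 of that median, against 4.23 in AAV2-GFP replicate 1. Ciita was at 0.774 and H2-Ab1 at 0.849 of that median, H2-DMa was 1.25-fold, H2-Aa 2.21-fold, H2-Eb1 2.65-fold and Cd74 2.99-fold above it. The ratios of Ciita and H2-Ab1 rest on few counts. Ciita had 7 counts in this mouse and 8 to 14 in the AAV206-GFP mice, and H2-Ab1 had 17 and 17 to 22. In AAV2-GFP replicate 1 the same ratios were 8.85 for Irf1, 10.7 for Cd274, 18.3 for Ciita, 57.6 for H2-Ab1, 163 for H2-Aa, 194 for H2-Eb1 and 189 for Cd74. Between these 2 mice Irf1 differed 1.57-fold, Cd274 1.40-fold and Cd74 63.1-fold, and no test is possible between single mice.

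**Figure D3:**
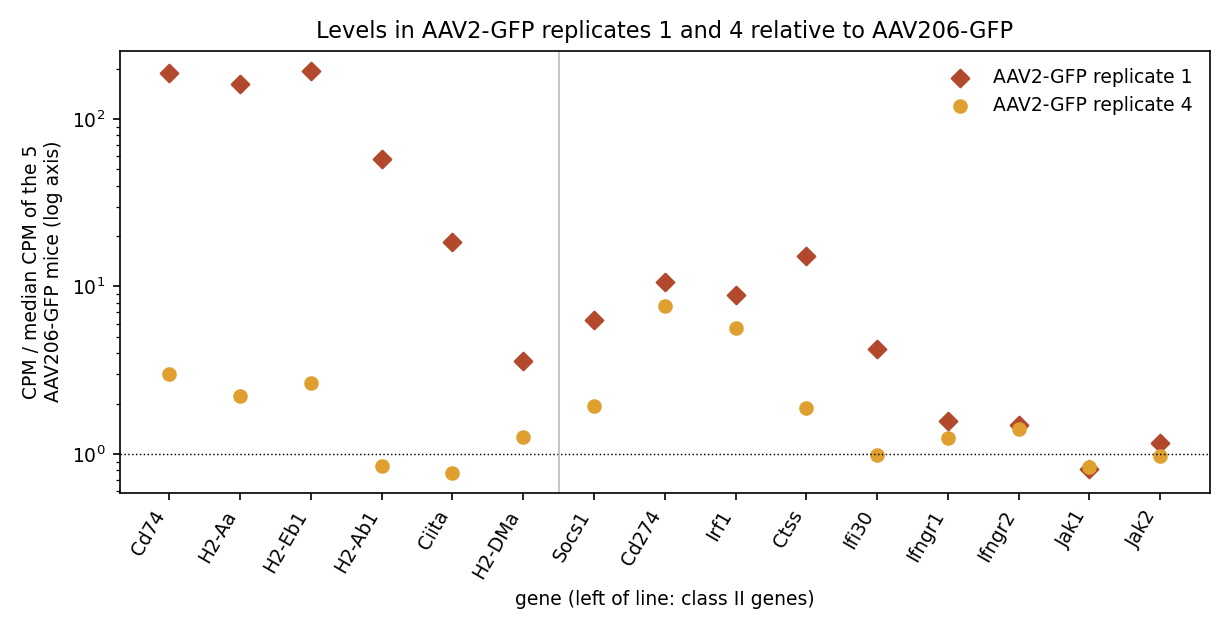
Level in AAV2-GFP replicates 1 and 4 divided by the median of the 5 AAV206-GFP mice, on a log axis, for class II genes (left of the line) and genes of the interferon axis, processing and checkpoint lists. The 2 mice lie close together for Irf1 and Cd274 and far apart for Cd74 and the chains. Outside class II they also lie apart for Ctss (15.1 in replicate 1 and 1.89 in replicate 4) and Ifi30 (4.23 and 0.981). The same holds for Socs1 (6.34 and 1.95), which has few counts and is named here because it is plotted. For the receptor and Jak genes they lie closer together. H2-DMb1, with an AAV206-GFP median at the floor of 3 counts, is left out.

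No gene for the factors that bind the X and Y boxes passed. Of 7 genes listed for this complex (Rfx5, Rfxank, Rfxap, Creb1, Nfya, Nfyb and Nfyc), all were tested, and edgeR called 0. At an unadjusted p under 0.05 there was 1, Rfx5, with a log2 fold change of 0.18 (edgeR adjusted p = 0.137). Rfxank and Rfxap had log2 fold changes of 0.08 and -0.16. The median over the 7 was -0.03, and none passed without AAV2-GFP replicate 1.

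A few lysosomal proteases that cut the invariant chain or antigens fell with AAV206-GFP, by small margins. Of 9 genes listed for processing and turnover, all were tested, 3 fell and none rose, with a median log2 fold change of -0.32. Over all tested genes 5.3% fell, 5.95% rose and 9.78% had groups without overlap. Ctsb, cathepsin B, was at 489, 407, 417, 429 and 403 CPM with AAV2-GFP and at 337, 348, 355, 311 and 371 CPM with AAV206-GFP, log2 fold change -0.32 ± 0.07 (SE, adjusted p = 0.00684 by edgeR). Lgmn, asparagine endopeptidase, was at 186, 170, 199, 185 and 179 CPM and at 146, 152, 149, 120 and 154 CPM, log2 fold change -0.35 ± 0.07 (SE, adjusted p = 0.00593 by edgeR). Ctsd, cathepsin D, was at 255 to 359 CPM and at 222 to 247 CPM, log2 fold change -0.32 ± 0.08 (SE, adjusted p = 0.0221 by edgeR). Ctsd lost its call without AAV206-GFP replicate 2 or 4 (edgeR adjusted p = 0.0542 and 0.0556). In these 3 genes the groups did not overlap, and all 3 still passed without AAV2-GFP replicate 1, with log2 fold changes of -0.26 for Ctsb, -0.35 for Lgmn and -0.23 for Ctsd. With AAV2-GFP replicates 1 and 4 both left out, Lgmn alone passed (edgeR adjusted p = 0.0286). Markers of other cells also moved between the vectors, and their part in these differences was not tested. The 4 endothelial genes summed to 183 to 201 CPM with AAV2-GFP and 147 to 172 CPM with AAV206-GFP without overlap. Most of these sums was Kdr, at 148 to 163 and 118 to 136 CPM. Of the 4, 2 fell, Kdr (log2 fold change -0.28, adjusted p = 0.00635 by edgeR) and Cldn5 (-0.64, adjusted p = 0.0192 by edgeR). Cdh5 (-0.33, adjusted p = 0.231 by edgeR) did not pass. Pecam1 went the other way and did not pass either (0.21, adjusted p = 0.303 by edgeR). Of 4 lens genes 2 were tested and both fell, Cryaa (-2.50, adjusted p = 0.0288 by edgeR) and Crybb2 (-2.67, adjusted p = 0.0183 by edgeR), with sums of 8.98 to 27.7 CPM and 0.182 to 9.51 CPM that overlapped. Kdr, Cldn5, Cryaa and Crybb2 passed without AAV2-GFP replicate 1 as well. The lowest level of any of the 3 proteases was 120 CPM, for Lgmn in AAV206-GFP replicate 4. Which cells express them cannot be told from whole retinas.

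Ctss, cathepsin S, a protease that cuts the invariant chain, had the pattern of the class II genes instead. It was at 98.0, 5.84, 14.6, 12.3 and 4.70 CPM with AAV2-GFP and at 4.49 to 7.97 CPM with AAV206-GFP, a log2 fold change of -2.09 that did not pass (edgeR adjusted p = 0.0516) but did with the filter lifted (edgeR adjusted p = 0.0102). Without AAV2-GFP replicate 1 it was -0.57 ± 0.28 (SE, adjusted p = 0.191 by edgeR). Ifi30, an interferon-induced thiol reductase of the same compartment, was at 11.5 CPM in AAV2-GFP replicate 1 and at 1.70 to 3.71 CPM elsewhere (log2 fold change -0.87, edgeR adjusted p = 0.143, and -0.30 without that library). Ctsl, cathepsin L, had a log2 fold change of 0.01.

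The class II genes beside the 7 were near silent outside AAV2-GFP replicate 1. Of 5 further genes in the table, none had more than 3 counts in any of the other 9 libraries, and none was tested. In AAV2-GFP replicate 1, H2-DMb2, the second DM beta gene, was at 4.08 CPM, H2-Ob and H2-Oa, the chains of the DO inhibitor of DM, at 3.44 and 1.36 CPM, and H2-Eb2 at 0.181 CPM, under the floor. H2-Oa and H2-Ob are named after their values were seen. Of 6 costimulatory and checkpoint ligands 3 were tested and none passed with edgeR, with 1, Cd274, at an unadjusted p under 0.05. With the filter lifted 2 of the 6 passed as lower, Cd86 and Cd274 (adjusted p = 0.0265 and 0.0274 by edgeR), where 3.42% of all genes did. In the fits without AAV2-GFP replicate 2, 3 or 5, 1 of 3 passed. Cd86, which binds CD28 on T cells, was at 4.07 CPM in AAV2-GFP replicate 1 and at most 0.645 CPM elsewhere. Cd40 was at 1.18 CPM there and at most 0.628 CPM elsewhere, and Cd80 at 1.81 CPM there, within the 1.10 to 3.05 CPM of the other libraries.

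Most markers of immune cells were highest in the same mouse as the class II genes, and their part in the result was not tested. Fewer cells of a type and less RNA per cell cannot be told apart in whole retinas. The 8 microglia genes, of which 8 were highest in AAV2-GFP replicate 1, summed to 155 CPM there, 40.8 to 54.2 CPM in the other AAV2-GFP mice and 34.6 to 40.8 CPM in AAV206-GFP mice. The 9 monocyte and macrophage genes, 9 of them highest there, summed to 105, 3.67 to 11.5 and 2.87 to 6.31 CPM in the same order. Ccr2, a receptor of recruited monocytes, was at 11.03 CPM there and at 0, 0.773, 0.0807 and 0 CPM in AAV2-GFP replicates 2 to 5. It was at 0 in all 5 AAV206-GFP mice. The 9 dendritic cell genes summed to 66.5, 11.5 to 15.2 and 10.7 to 18.2 CPM, and 7 were highest there. Zbtb46 and Batf3 were highest in AAV206-GFP replicates 2 and 1. Flt3 and Zbtb46 had log2 fold changes of -0.01 and 0.04 and did not pass (adjusted p = 0.981 and 0.903 by edgeR). These 3 genes are named after their values were seen. Irf8, shared by dendritic cells and microglia, was at 35.5, 2.34, 2.09, 3.47 and 1.97 CPM with AAV2-GFP and at 0.862 to 2.55 CPM with AAV206-GFP, and was the dendritic list gene that passed (log2 fold change -2.59, adjusted p = 0.0417 by edgeR). Without AAV2-GFP replicate 1 it did not pass, at -0.72 ± 0.34 (SE, adjusted p = 0.179 by edgeR).

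Lymphocyte genes were nearly confined to the same library. The 10 T cell genes summed to 25.8 CPM in AAV2-GFP replicate 1, 0.449 to 1.08 CPM in the other AAV2-GFP mice and 0.594 to 1.35 CPM in AAV206-GFP mice, and all 10 were highest there. Cd3g, Cd8b1, Trbc2 and Cd2 had 0 counts in all 9 other libraries, and Cd4, the co-receptor for class II, was at 3.62 CPM there and at most 0.180 CPM elsewhere. The 6 B cell genes summed to 94.7, 0.940 to 2.07 and 0.690 to 1.68 CPM, of which Ighm, the immunoglobulin heavy chain, made up 90.1 CPM in AAV2-GFP replicate 1. Ms4a1, which encodes the B cell antigen CD20, was at 0.814 CPM there and had 0 counts elsewhere. The 5 erythrocyte genes summed to 67.8 CPM in AAV2-GFP replicate 1, 73.3 to 85.8 CPM in the other AAV2-GFP mice and 101 to 319 CPM with AAV206-GFP. Of the 5, 4 rose with AAV206-GFP with and without AAV2-GFP replicate 1. With all 10 libraries 5.95% of all tested genes rose.

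**Figure D4:**
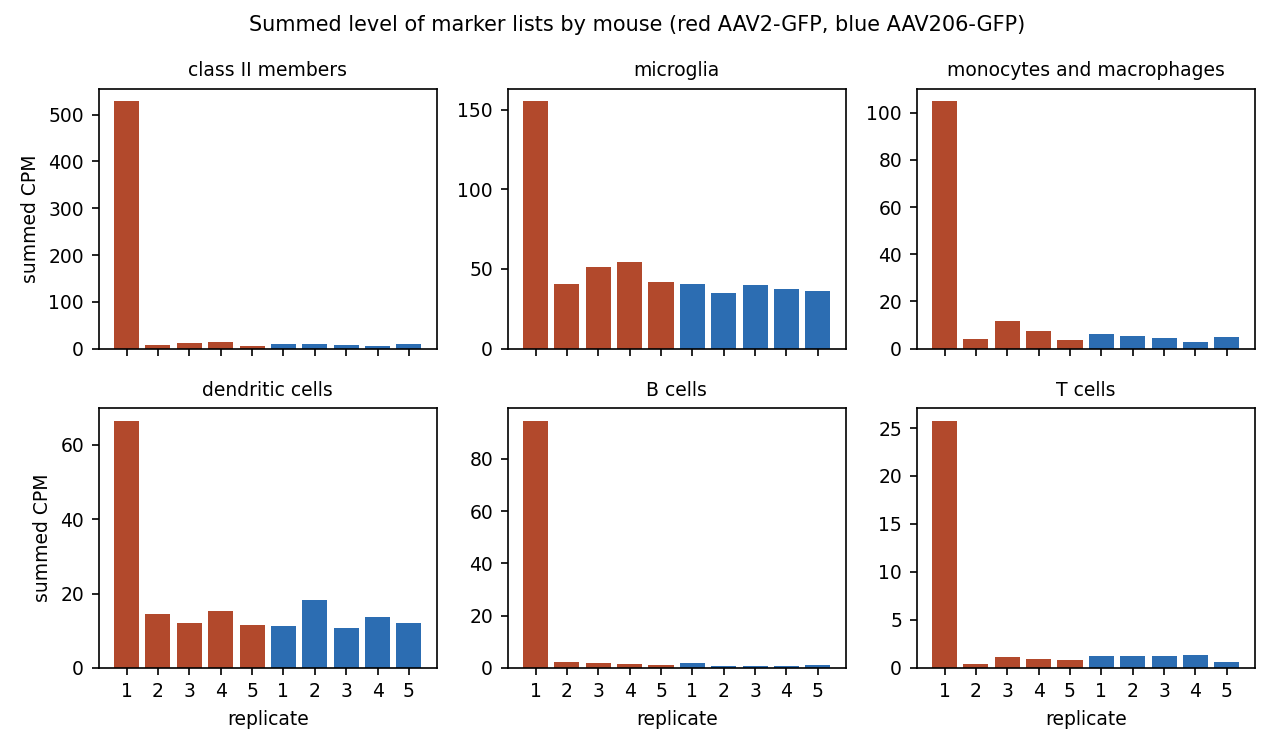
Summed CPM of the 7 class II genes and of 5 fixed lists of immune cell markers, with 1 bar per mouse (replicates 1 to 5 of AAV2-GFP in red, then of AAV206-GFP in blue). AAV2-GFP replicate 1 has the tallest bar in each panel, at 529 CPM for class II and 94.7 CPM for B cells, while microglia genes are present in all 10 mice.

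The genes whose level over the 10 libraries was most like that of the class II genes included 4 class I genes. Likeness was the Pearson correlation of log2(CPM + 1) with the mean of the 3 tested class II genes, over 14955 genes with a symbol and at least 1 CPM on average. The 10 highest were Mpeg1 (0.986), Ptprc (0.985), H2-Q7 (0.983), Ptpn6 (0.980), H2-D1 (0.980), H2-Q6 (0.979), Arhgap45 (0.977), Lyz2 (0.972), C3 (0.970) and H2-K1 (0.968). Mpeg1 is a pore-forming protein of macrophages, Ptprc the leukocyte antigen CD45 and Lyz2 the lysozyme of myeloid cells and C3 the central complement component, while H2-K1, H2-D1, H2-Q6 and H2-Q7 belong to class I. All 10 points share their library between both axes, and AAV2-GFP replicate 1 sets most of the spread. Over the 9 other libraries the same correlations were 0.467 for Ptprc, 0.604 for Mpeg1 and 0.853 for Lyz2. H2-Q6 and H2-Q7 are near-identical copies, so their separate levels are uncertain.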

How the data were processed

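RNA from whole retinas of 5 AAV2-GFP and 5 AAV206-GFP mice was sequenced in read pairs of 150 bases, per the labels' protocols. The authors deposited estimated counts per Ensembl gene, unscaled. The submitters' processing notes name STAR 2.7.10b, RSEM 1.3.1 and mm10; the annotation release and use of strand are not given in the sources used here. Of all values 5.95% carried decimals, so counts were rounded. Symbols, coordinates and exon lengths came from GENCODE M21 (GRCm38), which named 91.3% of rows.

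Columns were matched to samples by description. Genes were kept by filterByExpr (minimum count 10), which left 15539. CPM used TMM-scaled library sizes. The vectors were compared with edgeR 4.0.16 in R 4.3.3 (quasi-likelihood F test, no covariates, Benjamini-Hochberg threshold 0.05); negative log2 fold changes mean lower with AAV206-GFP, and the standard error is the fold change over the square root of F. DESeq2 1.42.0 and limma 3.58.1 served as alternatives, with other scalings and filters, unrounded counts, the replicate number as a block and each library left out. Members, lists and tests were chosen with earlier results of these data known. Named genes are the 7 members, list genes that passed, up to 3 per list that did not, marker genes that passed or were at 0, and the 10 most correlated genes; others are marked in the text or define a cell type. A few list genes that enter the counts and sums are not reported here by name.

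Library pairs within groups differed by more than sampling noise (chi-square 3.74 to 23.2 per degree of freedom). Floors cover counting error only, as reads carry no molecular identifiers. In counts simulated for this comparison over 15406 genes, edgeR recovered 95.8% of 2-fold and 69.4% of 1.5-fold changes, and 10 of 170 calls were false. These rates are not given for the class II genes, where the SD with AAV2-GFP could exceed the mean (Cd74, 46.2 ± 99.4 CPM, SD, n = 5). Recovery for genes with such a spread was not tested.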

Additional observations from a re-analysis of the deposited data

Results flagged for a closer look

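In 28 sets of 5 mice (the 7 class II genes, their mean level and the 6 pathway genes that passed, in each group) the gap of the most distant mouse to its nearest neighbour was divided by the range of the group. In 10 sets this ratio was above the critical value of 0.71. For independent sets 1.4 would be reached by chance. These sets share mice and genes and were chosen with results of these data known, so that figure does not apply to them.

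In 8 of the 10 the distant mouse was AAV2-GFP replicate 1, which was high. The ratio was 0.986 for H2-Aa (89.2 against at most 1.21 CPM in the other mice of the group), 0.989 for H2-Ab1 (93.0 against at most 1.55 CPM) and 0.984 for H2-Eb1 (88.5 against at most 1.47 CPM). It was 0.986 for Cd74 (224 against at most 3.55 CPM), 0.897 for H2-DMa (13.5 against at most 4.70 CPM) and 0.922 for H2-DMb1 (6.95 against at most 0.541 CPM). Ciita had a ratio of 0.930 (13.4 against at most 1.44 CPM) and the mean class II level one of 0.825 (6.07 against at most 1.98).

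The other 2 were in AAV206-GFP. Irf1 was highest in replicate 3 (ratio 0.735, 4.40 against 3.37 to 3.65 CPM), and Lgmn was lowest in replicate 4 (ratio 0.778, 120 against 146 to 154 CPM).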

How the results depend on the processing

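Of the 3 tested class II genes 1 passed. This count was 4 of 7 without the filter on low counts, and 0 with DESeq2 (which gave no p-value for Cd74 and H2-Ab1), limma-voom, limma-voom with sample weights and edgeR with robust dispersions. Leaving out 1 library gave 0 to 3, with 3 without AAV2-GFP replicate 2 or 5 and 0 without AAV2-GFP replicate 1 or any AAV206-GFP replicate. Left-out fits need fewer libraries to keep a gene, so 3 to 5 members were tested in them. Without both AAV2-GFP 1 and 4, chosen after seeing the data, the count was 0. The 6 pathway genes that passed became 2 to 8 with 1 library left out, and 2 without both. The 1747 genes called in all became 991 to 1912 with 1 library left out and 985 without both.

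Direction turned for H2-Ab1 with sample weights (0.17), without AAV2-GFP replicate 1 (0.70) and without both (0.87), for Ciita (unfiltered) without AAV2-GFP replicate 1 (0.11), and for H2-Aa without both (0.69). With 1 library left out H2-Ab1 ranged from -3.83 to 0.70 and Ciita from -2.19 to 0.11. The mean class II difference of -0.90 moved by less than 1 SD (2.05) in all 16 alternatives, although it was 0.0014 without AAV2-GFP replicate 1, since that SD is set by the same mouse. The replicate block, with the number as a term, called 1085 genes in all and kept 1 class II gene; same-numbered mice correlated at -0.05 to 0.04 in their deviations, and 1 of 10 libraries correlated best with its own number, so numbers are names. The causes were not tested. Depth limits the chains outside AAV2-GFP replicate 1, where many values lie near the floor.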
